A study of Mus musculus with 14 samples.

Results

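Haematopoietic stem cells (HSCs) from the bone marrow of wild-type mice were compared between 20 months and 2 months of age, in transcripts of all measured genes. The comparison used 7 of the 14 arrays of the series: 4 arrays of cells from old wild-type mice and 3 of cells from young wild-type mice. The members were chosen by their labels alone, as the arrays of genotype WT, and the difference reported throughout is the old mean minus the young mean. Every group was freshly isolated from marrow as CD150+CD48-LSK cells, sorted in a pair of successive rounds, where LSK stands for cells lacking mature lineage markers and carrying Sca-1 and Kit. The other 7 arrays held the same cell population from Lnk-/- mice, 4 at 20 months and 3 at 2 months, which lack the adaptor protein Lnk (gene Sh2b3). Per the labels, arrays of the same group are separate biological replicates. The labels do not give the number, sex or strain of the mice behind an array. The p-values below thus measure the spread between arrays, which was estimated over all 14 arrays of the series. RNA was hybridised to the Affymetrix Mouse Gene 1.0 ST platform, 1 array per sample, and a level below is a deposited log2 value.

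HSCs give rise to every blood lineage and are mostly quiescent. With age they become more numerous in mouse marrow, repopulate less well per cell after transplantation, and produce fewer lymphoid and more myeloid and platelet-lineage progeny. The CD150+CD48- gate was designed to enrich cells with long-term repopulating activity, and CD150 (gene Slamf1) is known to be carried at higher density by platelet- and myeloid-biased stem cells.

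The measured transcripts went with the labelled cell type. Kit, the stem cell factor receptor, was at 10.46, 10.63 and 10.56 on the young arrays and at 10.52, 10.64, 10.72 and 10.64 on the old arrays, and the 2 ages overlapped. Cd48, the marker excluded by the sort, was at 2.95, 3.40 and 3.29 on the young and at 2.89, 2.86, 2.81 and 2.70 on the old arrays, all under the low end of the scale defined next. The HSC marker list had a mean level of 8.29 to 8.46 on the young arrays and 8.51 to 8.82 on the old arrays over its 12 measured markers. Ly6a, which encodes Sca-1, was not analysed here. As a measure of the low end of the scale, the 1076 olfactory receptor genes, which blood cells are not known to use, had a median level of 2.75 and a 95th percentile of 4.05. A gene at or under 4.05 is called near the low end below, and a difference that starts or ends there is given without a fold. Its log2 difference is one between measured values, not a measured change of the transcript.

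Most markers of mature lymphoid, monocytic and dendritic cells were near that low end at both ages. The means of the marker lists ranged over the old and then the young arrays from 4.2 to 4.26 and from 4.27 to 4.47 for B cells (9 markers, 6 near the low end), and from 4.03 to 4.06 and from 3.89 to 3.93 for T and NK cells (10 markers, 6 near the low end). For monocytes and macrophages they ranged from 4.28 to 4.34 and from 4.53 to 4.65 (11 markers, 6 near the low end), and for dendritic cells from 4.06 to 4.17 and from 4.27 to 4.35 (9 markers, 6 near the low end). These ranges did not overlap between the ages in any of these 4 lists, and the old arrays were lower in 3 of them. In the list of T and NK cells they were higher, but only 4 of its 10 markers had a difference above 0, the median difference was -0.05, and Klrb1c, with 2.51, was its only call. No B cell marker was called, and none was without overlap on its own. The median of the olfactory receptor genes was also lower on the old arrays, as given below. The part of this array-wide difference in the list means was not tested. For neutrophils the means ranged from 4.35 to 4.79 on old and from 4.55 to 4.71 on young arrays. They ranged from 3.94 to 4.03 and from 4.06 to 4.19 for stromal cells, and from 5.87 to 6.19 and from 5.78 to 5.80 for endothelial cells. The stromal and endothelial ranges did not overlap between the ages either, the stromal being lower and the endothelial higher on the old arrays. Of the 9 endothelial markers 5 had a difference above 0 and 2 were called, both higher. Of the 9 stromal markers 1 was called, lower. The megakaryocyte list ranged from 6.80 to 7.89 on the old and from 6.83 to 7.07 on the young arrays, and its highest value was on old array 2. Erythroid markers ranged from 5.15 to 5.45 on old and from 5.32 to 5.39 on young arrays, mast cell and basophil markers from 3.17 to 3.57 and from 3.28 to 3.34, and plasma cell markers from 3.84 to 4.02 and from 3.89 to 4.06. In a sorted bulk sample, fewer cells of a type and less RNA per cell cannot be told apart.

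**Figure D1:**
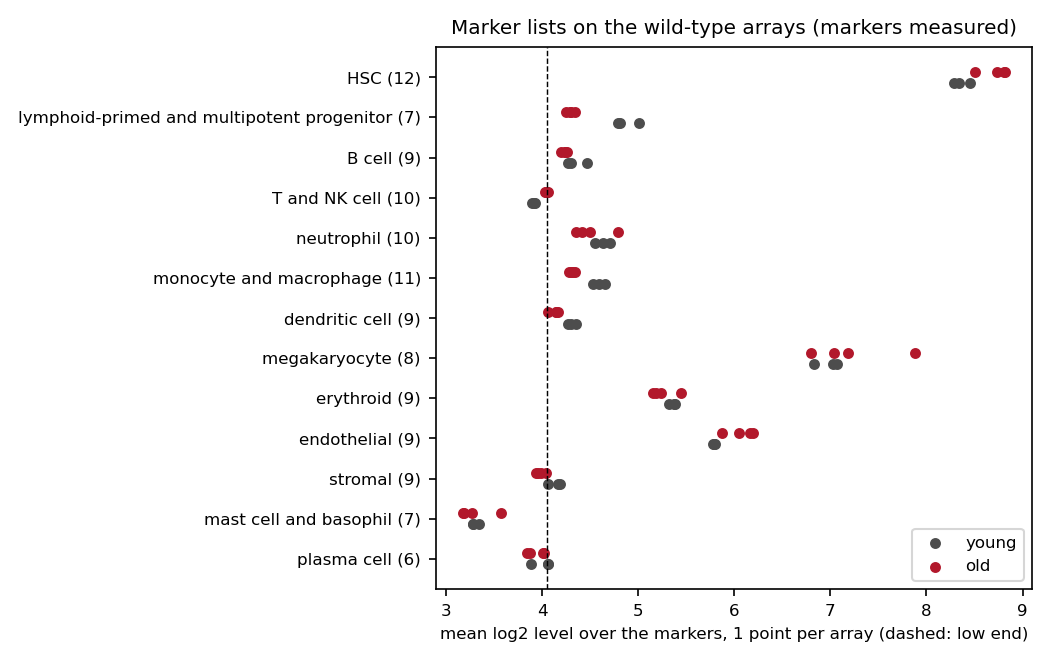
Mean log2 level over the markers of each cell-type list (number of measured markers in brackets), with 1 point per wild-type array, young in grey and old in red, and the low end of the scale at 4.05 as a dashed line. The HSC list lies between 8.29 and 8.82 on all 7 arrays, and the old array that stands apart in the megakaryocyte list lies at 7.89.

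Some arrays stood apart from the others of their group. Xist, the RNA of the inactive X chromosome, was at 9.89 on young array 1 and at 9.70 and 8.47 on old arrays 1 and 2. It was at 3.41 to 4.23 on the other 4, while Y-linked genes had mean levels of 6.33 to 7.31 on all 7 arrays. On young array 1 and old arrays 1 and 2 the Y-linked means were 6.59, 6.33 and 7.06, so both kinds of transcript were present there. Whether these arrays held RNA of mice of both sexes is not given by the labels. The SD of all values on an array was 2.00 to 2.04 on the young and 2.07 to 2.09 on the old arrays, so this measure of spread separated the ages completely. Among the old arrays, array 2 was the farthest from the group median in 33.9% of the 13040 genes above the low end at either wild-type age, against 15.6% to 25.9% for each of the other 3. The adaptor gene Sh2b3 itself was at 7.80 ± 0.18 (SD, n = 3) in young and 7.59 ± 0.20 (SD, n = 4) in old wild-type cells, an age difference of -0.21 ± 0.18 (SE; limma adjusted p = 0.56).

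Of the 20239 genes tested, 668 (3.30%) were called with age in wild type at an adjusted p under 0.05 by limma with Benjamini-Hochberg adjustment, 454 of them higher (2.24%) and 214 lower (1.06%) in old HSCs. In this text a gene rose or fell only if it was among these calls. Counts of called list members below are to be read beside these shares of all genes. The gene lists were chosen with earlier results of these data known, so a share above these is no separate support for a list. The shares also depend on level. With only the 10777 genes above 5 on at least 3 arrays tested, 536 were called higher and 143 lower. Of the calls, 133 changed at least 2-fold, of which 110 rose and 23 fell. The called HSC markers were 4 of 12, all higher (Gata2, Hoxb5, Slamf1 and Esam). Among markers of other cells, Klrb1c, Clec9a, Vwf, Kdr and the neutrophil protease gene Prtn3 rose, and C1qb, Slc40a1, Xcr1, Sparc, Flt3, Cd34 and Satb1 fell. Of these, C1qb, Slc40a1, Xcr1, Sparc and Kdr were not above 5 on at least 3 arrays, and Slc40a1 was near the low end at both ages. In the 7 fits that left out 1 wild-type array, the calls of Gata2, Sparc and Kdr held in 1, 1 and 3. The part of other cells in the results below was not tested.

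The median difference was 0.66 among the genes that rose and -0.53 among those that fell, beside -0.04 over all 20239 genes. The arrays of the 2 ages did not overlap in 652 of the 668 called genes, beside 15.3% of all genes. The calls were made from these same arrays, so this is no separate support for them. Over all genes the arrays did not overlap in 6.59% with higher and 8.76% with lower old values.

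The 2 directions differed in where on the scale they lay. Of the 454 genes that rose, 32 had a young mean near the low end, and 25 of these were above it in old cells. Of the 214 that fell, 90 had an old mean near the low end, and in 62 of them both ages were there. At that end the whole arrays also differed with age, the median of the olfactory receptor genes being 2.79 to 2.85 on the young and 2.73 to 2.76 on the old arrays. The part of these array-wide values in the small falls was not tested, and falls near the low end are marked as such below.

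**Figure D2:**
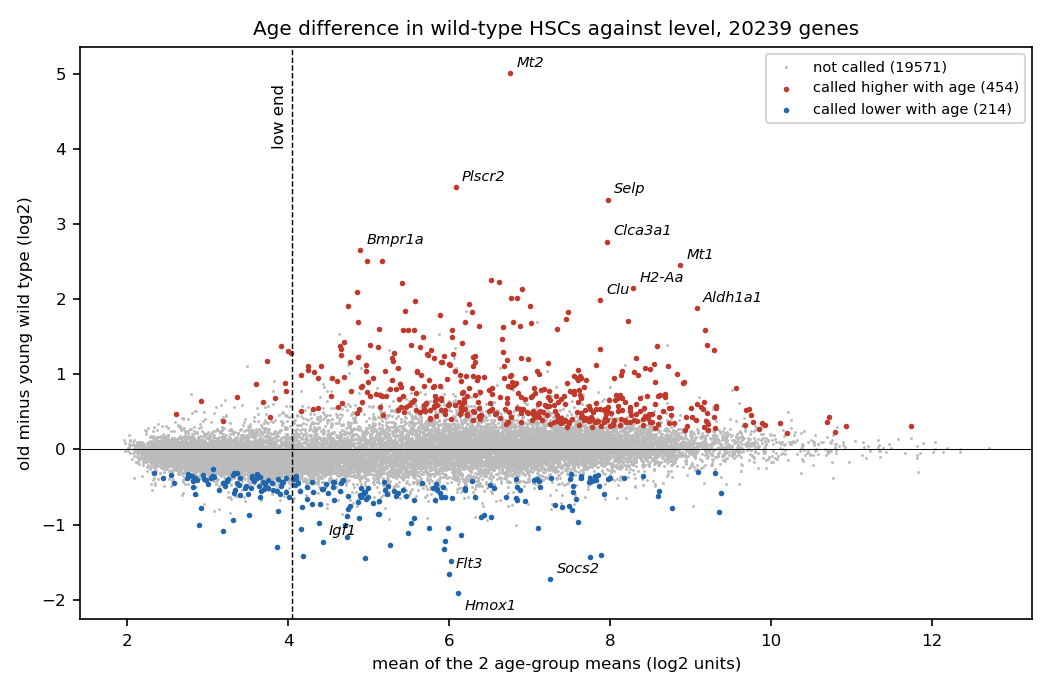
Old minus young wild-type difference (log2) of each of the 20239 genes against the mean of the age-group means (log2 units), with the 454 genes called higher in red, the 214 called lower in blue and the rest in grey. Large rises span the scale above the low end of 4.05 (dashed line), and many small falls lie below it.

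Removing single arrays changed how many genes were called but not the lead of rises over falls. Without old array 3, old array 4, young array 1 or young array 3 there were 411, 443, 382 and 440 calls, and without old array 1, old array 2 or young array 2 there were 531, 697 and 621. Of the 668 called genes, 253 were called in all 7 of these fits, 200 of them higher and 53 lower. "Kept without any 1 array" below refers to these 253 genes. When the SD of each array was added as a covariate, 49 genes were called, 48 of them among the 668. Since that measure separated the ages, its part and that of age cannot be told apart. In that fit no gene of the lists of MHC class I, MHC class II, interferon-induced GTPases or immediate-early genes described below was called. Without the 3 wild-type arrays of high Xist, and the 2 such Lnk-null arrays, 231 genes were called from 2 arrays of each wild-type age. In that fit the rises were 2 for metallothioneins and zinc, 4 for MHC class II, 5 for coagulation and complement and 3 for integrins and selectins. They were 3 for glutathione, 2 for tetraspanins and SLAM receptors, 2 for TGF-beta and BMP, 2 for lipids, 3 for Hox genes, 1 for junctions and 1 for RGS and G proteins. The lists of haem and iron, SOCS genes, haematopoietic factors, imprinted genes, sirtuins and autophagy had none. The falls were 2 for cytokine receptors, 1 for ion channels, 1 for haematopoietic factors, 2 for IGF, and none for G2 and M phase and senescence.

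Metallothioneins gave the largest rise of all. They are small cysteine-rich proteins that bind zinc and copper, and zinc acts on their genes through the transcription factor MTF1 at short metal response elements. Their sequences upstream of the annotated RefSeq start are shown because the adjacent genes Mt2 and Mt1 rose together. Where transcription of either gene begins in these cells was not measured. Each is the 250 bases before the RefSeq start in mouse assembly GRCm38.p6, plus strand, with matches to the core TGCACNC or TGCGCNC on either strand in capitals, at chr8:94178839-94179088 for Mt1 and chr8:94172368-94172617 for Mt2.
Mt1: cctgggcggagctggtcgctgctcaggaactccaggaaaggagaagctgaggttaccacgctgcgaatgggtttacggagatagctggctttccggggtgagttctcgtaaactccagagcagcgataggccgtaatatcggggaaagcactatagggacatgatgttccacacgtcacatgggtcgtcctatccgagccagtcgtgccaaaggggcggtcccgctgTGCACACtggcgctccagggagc
Mt2: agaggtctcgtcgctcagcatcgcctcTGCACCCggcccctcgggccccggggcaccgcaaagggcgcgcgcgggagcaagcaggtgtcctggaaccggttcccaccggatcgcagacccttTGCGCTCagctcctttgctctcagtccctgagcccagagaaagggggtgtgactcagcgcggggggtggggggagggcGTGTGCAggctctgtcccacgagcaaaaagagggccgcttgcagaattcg
The upstream window of Mt1 held 1 match and that of Mt2 held 3. That contrast depends on the annotated start. In the bases just after it Mt1 had matches at positions 3 and 21 and Mt2 had one at position 5. The counts are thus those of these windows and not of all elements each gene has. Over 19186 such windows of 15651 genes, 25.4% held at least 1 match and 1.61% at least 3. A match of these letters is a description of the window and not a measured binding site.

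Mt2 was at 4.81, 4.71 and 3.25 on the young arrays and at 9.22, 9.29, 9.33 and 9.21 on the old arrays. The ages were far apart, and the young levels, the lowest of which was near the low end, varied far more than the old ones. The difference was 5.01 ± 0.43 (SE; limma adjusted p = 4.5e-06). Mt1 was at 7.96, 7.47 and 7.51 in young and at 10.06, 10.18 and 10.17 on old arrays 1, 2 and 4 and slightly lower on old array 3, a rise of 2.46 ± 0.17 (SE), or 5.49-fold (limma adjusted p = 4.6e-07). Both were kept without any 1 array. The brain-expressed family member Mt3 was at 4.99 ± 0.13 (SD, n = 3) in young and 4.78 ± 0.08 (SD, n = 4) in old cells, and Mtf1 itself was at 7.57 ± 0.12 and 7.77 ± 0.13. Neither passed the test (limma adjusted p = 0.39 and 0.43). Of the 29 measured genes of the metallothionein and zinc list, 2 rose and none fell, and their median difference was 0.02.

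Genes of haem breakdown moved in both directions. Hmox1, haem oxygenase 1, opens the haem ring and releases its iron, and it had the largest fall among the named genes. It was at 6.83, 6.98 and 7.39 in young and at 5.38, 4.92, 5.14 and 5.18 in old cells, without overlap. It fell by 1.91 on the log2 scale (SE 0.18), a 3.76-fold drop (limma adjusted p = 1.2e-05), and the call was kept without any 1 array. Biliverdin reductase B (Blvrb), which acts on haem breakdown products, rose by 0.53 ± 0.13 (SE; limma adjusted p = 0.034), and the haem transporter gene Slc48a1 rose by 0.38 ± 0.09 (SE; limma adjusted p = 0.031). Each of these 2 calls held in only 2 of the 7 fits without 1 array, and both were lost without old array 1, old array 3, old array 4 or young array 1. Of the pair, 1 was lost without young array 2 and 1 without young array 3. The iron exporter ferroportin (Slc40a1) fell by 0.60 (SE 0.10; limma adjusted p = 0.0035) with both ages near the low end. Of 27 measured haem and iron genes, 2 rose and 2 fell.

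Among glutathione and peroxide genes, 6 of 49 rose (12.2%) and 1 fell, with a median difference of 0.14. The largest rise was that of Gstm2, a glutathione transferase of the mu class, which couples glutathione to electrophilic compounds. It was at 5.44, 5.95 and 6.13 in young and at 7.47, 7.94, 7.91 and 8.10 in old cells. All old arrays were thus above all young ones, by 2.01 ± 0.17 (SE), or 4.04-fold (limma adjusted p = 4.1e-06). Its relatives Gstm7 and Gstm5 rose by 0.71 ± 0.17 and 0.51 ± 0.12 (SE; limma adjusted p = 0.03 and 0.024). The mu-class genes are similar in sequence, so a part of their signals may be shared between probe sets. The peroxidase Gpx8 was at 3.98 ± 0.24 (SD, n = 3) in young and 5.42 ± 0.18 (SD, n = 4) in old cells and rose (limma adjusted p = 0.001). Gclm, the modifier subunit of the enzyme that starts glutathione synthesis, rose by 0.46 ± 0.10 (SE; limma adjusted p = 0.017), and the mitochondrial superoxide dismutase Sod2 by 0.36 ± 0.08 (SE; limma adjusted p = 0.029). Microsomal Mgst1 went the other way and fell by 1.17 (SE 0.19; limma adjusted p = 0.0025). Without old array 4, young array 1 or young array 3 the count of rises in this list was 3, 3 and 2. The regulator of many of these genes, Nfe2l2 (NRF2), was at 9.11 ± 0.06 in young and 9.31 ± 0.08 in old cells and was not called (limma adjusted p = 0.16).

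A minority of antigen presentation genes were called, nearly all of them higher in old HSCs. MHC class II molecules present peptides from outside the cell to CD4+ T cells, and MHC class I molecules present peptides from inside it. Of 16 measured class II genes, 5 rose (31.2%) and 1 fell, with a median difference of 0.24. The alpha chain H2-Aa was at 7.11, 7.67 and 6.88 in young and at 8.81, 9.69, 9.41 and 9.55 in old cells, and rose by 2.15 ± 0.23 (SE), or 4.43-fold (limma adjusted p = 5.1e-05). The beta chain H2-Eb1 was at 5.80, 5.75 and 5.96 in young and at 7.65, 8.13, 8.07 and 8.06 in old cells, and rose by 2.14 ± 0.23 (SE), or 4.41-fold (limma adjusted p = 4.7e-05). In both genes the lowest old array was array 1, and the ages did not overlap.

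The invariant chain Cd74, which guides class II molecules through the cell, rose by 1.83 ± 0.26 (SE; limma adjusted p = 0.00085) and H2-Ab1 by 1.6 ± 0.22 (SE; limma adjusted p = 0.00057). These 4 calls were kept without any 1 array. The peptide-loading gene H2-DMa rose by 0.63 ± 0.15 (SE; limma adjusted p = 0.032), a call that held only without old array 1 or young array 2. The protease cathepsin S (Ctss), which trims the invariant chain, fell by 0.71 (SE 0.16; limma adjusted p = 0.021), a call lost without old array 3, old array 4 or young array 1. The class II master regulator Ciita was at 5.09 ± 0.09 in young and 5.21 ± 0.24 in old cells and was not called (limma adjusted p = 0.68). B cells and dendritic cells are the usual carriers of class II. Most of their markers were near the low end, and the list means were lower on the old arrays as given above. Their 2 lists held 1 called rise, that of Clec9a, and 2 called falls, those of Flt3 and Xcr1. The part of such cells in the class II rises was not tested.

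The promoters of H2-Aa and H2-Eb1 are shown for the Y box of class II genes, the inverted CCAAT motif bound by the factor NF-Y. The 100 bases around it, from RefSeq in GRCm38.p6, lie at chr17:34287835-34287934 on the minus strand for H2-Aa and at chr17:34305745-34305844 on the plus strand for H2-Eb1, with CTGATTGG in capitals.
H2-Aa: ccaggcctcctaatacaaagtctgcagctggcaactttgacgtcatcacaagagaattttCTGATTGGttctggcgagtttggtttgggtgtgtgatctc
H2-Eb1: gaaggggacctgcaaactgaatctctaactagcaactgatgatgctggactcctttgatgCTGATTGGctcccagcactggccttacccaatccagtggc
Both windows of H2-DMa lacked these letters. They were in 4.44% of the 19186 upstream windows, on either strand.

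MHC class I genes moved by less. Of 33 measured, 6 rose (18.2%) and none fell, with a median difference of 0.24, and between 5 and 8 rose in the fits without 1 array. Without the 3 arrays of high Xist 2 rose. The classical gene H2-D1 rose by 0.35 ± 0.06 (SE; limma adjusted p = 0.0041), and the non-classical genes H2-T3, H2-T10, H2-T22 and H2-T23 by 1.39 ± 0.20, 0.78 ± 0.15, 0.66 ± 0.12 and 0.65 ± 0.11 (SE; limma adjusted p = 0.0009, 0.0069, 0.0067 and 0.0024). H2-Q6 rose by 0.43 ± 0.08 (SE; limma adjusted p = 0.008), the only 1 of the 6 calls lost without a single array, young array 1. Class I genes are close in sequence, and the deposited values do not tell how far their probe sets share signal. The second classical gene, H2-K1, differed by 0.24 ± 0.07 (SE; limma adjusted p = 0.062) and the shared light chain B2m by 0.10 ± 0.08 (SE; limma adjusted p = 0.51), and neither was called. Nlrc5, the class I counterpart of Ciita, differed by 0.25 ± 0.09 (SE; limma adjusted p = 0.15).

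Interferon-induced GTPases attack intracellular pathogens, and a minority of them rose. Of 32 measured genes of the list of GTPases and IFIT genes, 7 rose (21.9%) and none fell, with a median difference of 0.21. Ifi47 was at 7.73, 8.10 and 7.85 in young and at 8.48, 9.28, 9.01 and 9.14 in old cells, a rise of 1.08 ± 0.17 (SE), or 2.12-fold (limma adjusted p = 0.0016). Irgm2 was at 8.40, 8.39 and 8.64 in young and at 9.20, 9.46, 9.31 and 9.53 in old cells, a rise of 0.90 ± 0.15 (SE), or 1.86-fold (limma adjusted p = 0.0032). The old arrays were above the young ones in both genes, and both calls were kept without any 1 array.

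Igtp rose by 1.03 ± 0.21 (SE; limma adjusted p = 0.012), Iigp1 by 0.95 ± 0.23 (SE; limma adjusted p = 0.032), Gbp2 by 0.80 ± 0.20 (SE; limma adjusted p = 0.038) and Gbp8 by 0.67 ± 0.18 (SE; limma adjusted p = 0.046). The count of rises in the list was 3 without old array 4, young array 1, young array 2 or young array 3, and 4 without old array 3, and it was 3 without the 3 arrays of high Xist. Igtp was lost without young array 1 alone, while Iigp1, Gbp2 and Gbp8 were each lost in at least 5 of the 7 fits. The interferon regulatory factor gene Irf1 differed by 0.37 ± 0.12 (SE; limma adjusted p = 0.11) and was not called. Uba7, the enzyme that activates the ubiquitin-like modifier ISG15, rose by 0.82 ± 0.07 (SE; limma adjusted p = 6.2e-06) and was kept without any 1 array.

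Igtp and Irgm2 are neighbouring genes, and their promoters are shown because they hold nearly the same stretch with an interferon-gamma activated site (GAS, TTCNNNGAA) and an interferon-stimulated response element (ISRE, here GAAA, any 2 bases and GAAA) next to each other. The 50 bases are from RefSeq in GRCm38.p6, plus strand, at chr11:58199496-58199545 and chr11:58214887-58214936, with both motifs in capitals.
Igtp: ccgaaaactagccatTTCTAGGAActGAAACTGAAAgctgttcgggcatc
Irgm2: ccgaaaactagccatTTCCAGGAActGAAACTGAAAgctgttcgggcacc
Searched on both strands, GAS was in 6.61% of the 19186 upstream windows, ISRE in 2.92% and both together in 0.37%. Among the other called interferon-induced genes searched, Ifi47 held neither motif and Gbp2 held an ISRE and no GAS. Bst2, which rose by 0.53, held 2 ISRE and 1 GAS. Windows for H2-Ab1, Cd74, Iigp1 and Gbp8 were not used here.

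Inflammatory caspases, some of which cut pro-interleukins or gasdermin D, rose as a group of neighbours. Casp1 rose by 0.70 ± 0.11 (SE; limma adjusted p = 0.0021), Casp4 by 0.57 ± 0.09 (SE; limma adjusted p = 0.0028) and Casp12 by 1.22 ± 0.14 (SE; limma adjusted p = 0.00013). All 3 calls were kept without any 1 array. Casp1 and Casp4 were the only 2 rises among the 33 measured genes of Toll-like receptors and inflammasomes, and none fell.

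Among integrins and selectins, P-selectin gave the largest rise. Selp encodes this receptor, which platelets and endothelium use to catch leukocytes. It was at 7.04, 6.02 and 5.87 in young and at 9.72, 9.46, 9.61 and 9.75 in old cells. The lowest old array was above the highest young array by far, and the difference was 3.32 ± 0.23 (SE; limma adjusted p = 4.1e-07). The integrin chains Itgb3 and Itga6 rose by 1.04 ± 0.13 and 0.90 ± 0.10 (SE; limma adjusted p = 0.00026 and 4.7e-05), and all 3 were kept without any 1 array. Itga9, whose old mean was near the low end, fell by 0.98 (SE 0.17; limma adjusted p = 0.0032), and Itgb5 fell by 0.51 (SE 0.10; limma adjusted p = 0.0066) with both ages near the low end. In all, 3 of 34 integrins and selectins rose and 2 fell.

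Coagulation and complement genes were called in 1 direction, with 6 of 30 higher (20%) and none lower. Von Willebrand factor (Vwf), the platelet adhesion protein that marks platelet-primed stem cells, was at 7.35, 7.26 and 7.0 in young and at 8.62, 8.65, 8.44 and 8.46 in old cells. It rose by 1.34 ± 0.13 (SE), or 2.53-fold (limma adjusted p = 1.3e-05), without overlap. Clusterin (Clu), a secreted chaperone, was at 7.07, 6.75 and 6.81 in young and at 8.94, 8.62, 8.93 and 8.98 in old cells, a rise of 1.99 ± 0.16 (SE), or 3.97-fold (limma adjusted p = 2.4e-06). The thrombin receptor F2rl3 rose by 0.94 ± 0.15 (SE; limma adjusted p = 0.0015), complement C4b by 0.97 ± 0.16 (SE; limma adjusted p = 0.003) and thrombomodulin (Thbd) by 0.68 ± 0.16 (SE; limma adjusted p = 0.029). Outside the list, protein S (Pros1), a cofactor of anticoagulant protein C, rose by 1.04 ± 0.12 (SE; limma adjusted p = 0.00016). Selp is counted in this list too. The call of Thbd was lost without old array 2, old array 3, young array 2 or young array 3.

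These rises stood beside platelet-lineage markers that were not called. None of the 8 measured megakaryocyte markers passed the test. Pf4, platelet factor 4, was at 9.01 ± 0.43 (SD, n = 3) in young and 9.55 ± 0.73 (SD, n = 4) in old cells (limma adjusted p = 0.5), with 10.55 on old array 2. Itga2b (CD41) was at 7.91, 7.94 and 7.78 in young and at 8.17, 9.18, 8.29 and 7.54 in old cells (limma adjusted p = 0.44), so the ages overlapped and array 2 was again the highest.

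Of the 35 tetraspanins and SLAM family receptors, 5 rose and 2 fell. Slamf1 (CD150), the positive marker of the sort, was at 7.69, 7.89 and 7.53 in young and at 8.22, 8.30, 8.59 and 8.62 in old cells. Its transcript thus rose within a gate defined on its protein, by 0.73 ± 0.13 (SE), or 1.66-fold (limma adjusted p = 0.004). Cd53 was spread widely in young cells, at 6.97, 4.97 and 6.22, and narrowly in old cells, at 7.82, 7.67, 7.61 and 7.69, and rose by 1.64 ± 0.33 (SE; limma adjusted p = 0.011). Cd9 rose by 0.72 ± 0.14, Tspan13 by 0.52 ± 0.08 and Cd84 by 0.39 ± 0.09 (SE; limma adjusted p = 0.0087, 0.0012 and 0.028). Cd37 fell by 0.66 (SE 0.15; limma adjusted p = 0.021), and Cd244a fell by 0.48 (SE 0.10; limma adjusted p = 0.018) to a level near the low end. Without young array 1 the list had 3 rises, without old array 3 it had no falls, and without old array 4, young array 2 or young array 3 it had 1.

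Junction genes that leukocytes, platelets and endothelium use to hold neighbouring cells rose in 3 of 56 cases. Jam2 was at 5.72, 5.89 and 5.94 in young and at 7.66, 6.78, 7.46 and 8.02 in old cells, a rise of 1.63 ± 0.20 (SE), or 3.09-fold (limma adjusted p = 0.00018). Esam and F11r, 2 further adhesion molecules of the same family, rose by 0.66 ± 0.11 and 0.61 ± 0.10 (SE; limma adjusted p = 0.0032 and 0.0026). None of the 56 fell, and 32 of them were near the low end at both ages. Cavin2, a coat protein of caveolae, rose by 1.71 ± 0.11 (SE), or 3.27-fold (limma adjusted p = 3.2e-07).

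C-type lectin receptors that lie next to each other in the genome rose together. Clec1a was at 5.38, 5.66 and 6.26 in young and at 7.85, 7.30, 7.91 and 8.07 in old cells, a rise of 2.02 ± 0.21 (SE; limma adjusted p = 3.6e-05). Clec9a, a receptor for exposed actin on dead cells, rose by 1.22 ± 0.16 (SE; limma adjusted p = 0.00034), and Clec1b by 0.69 ± 0.15 (SE; limma adjusted p = 0.018) from a young mean near the low end, a call lost without young array 1 or young array 3. Klrb1c, which encodes the NK1.1 antigen of natural killer cells, was at 3.66, 3.72 and 3.80 in young cells, all near the low end, and at 6.44, 5.49, 6.16 and 6.86 in old cells. It rose by 2.51 ± 0.31 (SE; limma adjusted p = 0.00021) and was the only call among 35 Gimap and Klr genes. The other 9 measured T and NK markers had no call.

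**Figure D3:**
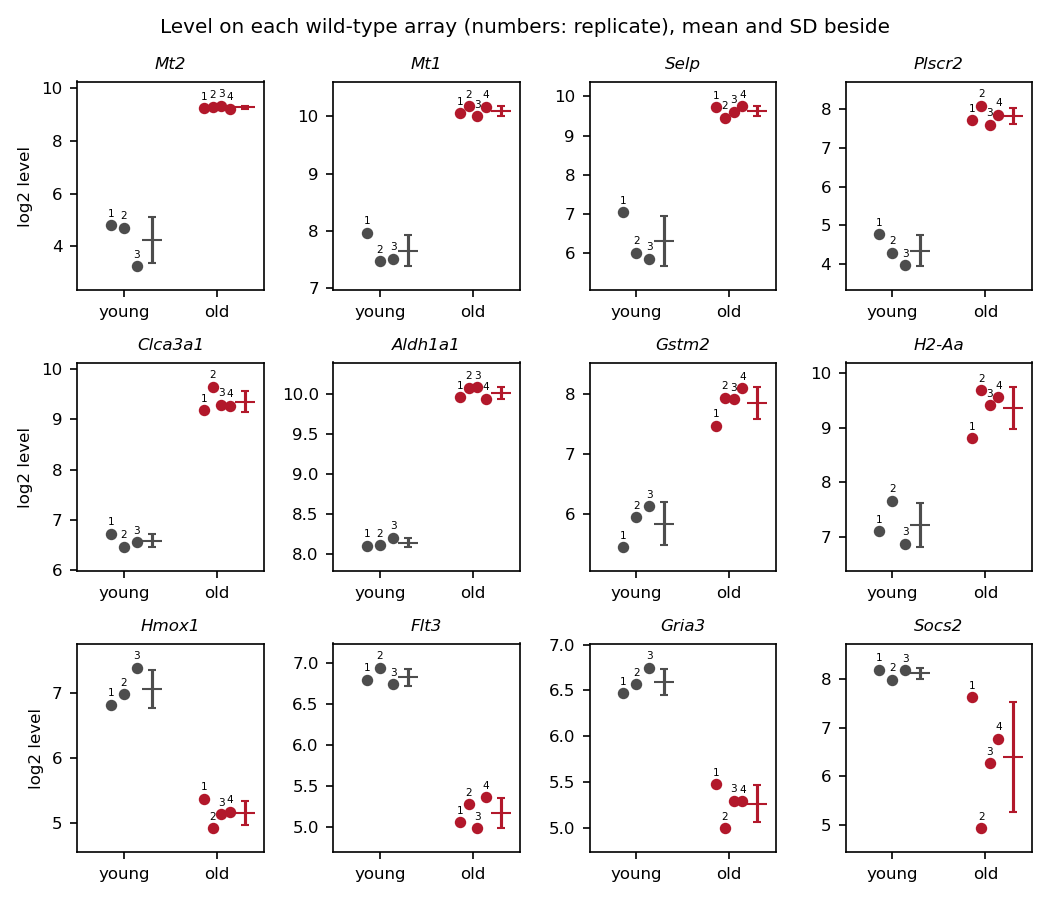
Log2 level of 12 genes on each wild-type array, with young in grey, old in red, the replicate number above each point, and the group mean and SD beside the points. Mt2 lies at 9.21 to 9.33 on all old arrays against 3.25 to 4.81 on the young ones, and Socs2 spreads from 4.93 to 7.62 over the old arrays.

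Cytokine receptors moved in both directions, with 3 of 58 higher and 4 lower. Flt3, the receptor tyrosine kinase of lymphoid-primed progenitors, was at 6.80, 6.94 and 6.74 in young and at 5.06, 5.28, 4.99 and 5.36 in old cells. It fell by 1.66 (SE 0.14), a 3.15-fold drop without overlap (limma adjusted p = 4.1e-06). Il12rb2, a chain of the interleukin 12 receptor, fell by 1.21 (SE 0.21; limma adjusted p = 0.0033), Ebi3, a secreted subunit of interleukin 27, fell by 1.44 (SE 0.24; limma adjusted p = 0.0029), and Csf2rb, the common beta chain of the receptors for interleukin 3 and GM-CSF, fell by 0.98 (SE 0.17; limma adjusted p = 0.004). All 4 falls were kept without any 1 array.

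The oncostatin M receptor Osmr was at 3.87, 3.49 and 4.02 in young cells, near the low end, and at 6.16, 4.84, 5.51 and 6.31 in old cells. It rose by 1.91 ± 0.31 (SE; limma adjusted p = 0.0024), and its lowest old array was array 2. Il1rapl2 rose by 1.31 ± 0.20 (SE; limma adjusted p = 0.0014), also from a level near the low end, and the growth hormone receptor Ghr by 0.62 ± 0.15 (SE; limma adjusted p = 0.033), which held in 1 of the 7 fits without 1 array.

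Of the genes that restrain JAK-STAT signalling, 1 of 24 rose and 1 fell (4.17% each, beside 2.24% and 1.06% of all genes). Socs2, a feedback inhibitor induced by STAT5, was at 8.20, 7.99 and 8.18 in young and at 7.62, 4.93, 6.27 and 6.77 in old cells. The old arrays were all lower, but they spread over more than the difference between the group means, and the gene fell by 1.72 (SE 0.41; limma adjusted p = 0.031). The call was lost without old array 3 or any young array. Socs6 rose by 0.64 ± 0.11 (SE; limma adjusted p = 0.0037) and was kept without any 1 array.

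The progenitor markers Cd34 and Satb1 fell beside Flt3. Cd34, whose protein marks multipotent progenitors and is absent from most adult long-term HSCs, was at 9.83, 9.83 and 9.68 in young and at 8.76, 9.35, 9.05 and 8.60 in old cells. It fell by 0.84 (SE 0.13), a 1.79-fold drop (limma adjusted p = 0.0016). Satb1, a chromatin organiser of lymphoid cells, fell by 1.01 (SE 0.19; limma adjusted p = 0.0061). In the list of 7 lymphoid-primed and multipotent progenitor markers 3 fell and none rose, and the list mean was 4.25 to 4.34 on the old and 4.79 to 5.01 on the young arrays. The co-stimulatory ligand Cd86 was at 4.28 ± 0.24 (SD, n = 3) in young and near the low end at 3.46 ± 0.12 (SD, n = 4) in old cells, and fell (limma adjusted p = 0.0067). Procr (EPCR), a stem cell surface marker, was at 7.98, 8.11 and 8.02 in young and at 9.08, 7.53, 9.02 and 9.36 in old cells. On old array 2 it was below all young arrays and on the other old arrays above them, and it was not called over all arrays (limma adjusted p = 0.22).

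In the BMP pathway, whose receptors act through SMAD proteins, the calls included a receptor, while most members of the list were not called. Bmpr1a, a type I receptor, was at 3.91, 3.58 and 3.23 in young cells, all near the low end, and at 6.40, 5.97, 6.07 and 6.45 in old cells. It rose by 2.65 ± 0.23 (SE; limma adjusted p = 4.5e-06) without overlap. Neogenin (Neo1), a receptor for guidance cues and a co-receptor for BMPs, rose by 1.29 ± 0.19 (SE; limma adjusted p = 0.0011). The ligand Bmp4 was at 5.12, 5.03 and 5.18 in young and at 7.13, 5.32, 6.29 and 7.0 in old cells, a rise of 1.32 ± 0.34 (SE; limma adjusted p = 0.043). Its call rested on every array but old array 2, since it was lost when any other wild-type array was left out.

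Id2, an inhibitor of basic helix-loop-helix factors, rose by 1.23 ± 0.28 (SE; limma adjusted p = 0.022), a call lost without old array 1, old array 4, young array 2 or young array 3, and Tgfb3 by 0.54 ± 0.14 (SE; limma adjusted p = 0.046) from a level near the low end, a call that was lost whichever array was left out. Bmp15 fell by 0.46 (SE 0.11; limma adjusted p = 0.033) within the low end. Id3 differed by 0.33 and was not called (limma adjusted p = 0.25). In all, 5 of 55 genes of the TGF-beta and BMP list rose and 1 fell, with a median difference of -0.01 and 25 of 55 above 0. Without old array 1, old array 4, young array 2 or young array 3 the count of rises was 2. Without old array 3 or young array 1 it was 3.

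Few Wnt, Notch and chemokine genes were called. In the Wnt list 2 of 58 rose (3.45%, beside 2.24% of all genes) and none fell. Sfrp1, a secreted Wnt antagonist, was at 4.94, 4.47 and 4.91 in young and at 6.54, 5.88, 6.44 and 6.59 in old cells, a rise of 1.59 ± 0.20 (SE), or 3.01-fold (limma adjusted p = 0.00024). Beta-catenin (Ctnnb1) rose by 0.29 ± 0.07 (SE; limma adjusted p = 0.032), a call that held in 1 of the 7 fits without 1 array. Without old array 3, old array 4 or any young array, 1 of the 58 rose. In the Notch list Hes1, a target of the pathway, rose by 0.80 ± 0.17 (SE; limma adjusted p = 0.014) and the Notch modifier Lfng fell by 0.74 (SE 0.19; limma adjusted p = 0.046) out of 31. Lfng overlapped between the ages and held only without old array 1, and Hes1 was lost without young array 3. The only call among 50 chemokines and their receptors (2%) was the rise of Cxcl16 by 0.77 ± 0.15 (SE; limma adjusted p = 0.0094), and the homing receptor Cxcr4 was at 9.44 ± 0.20 (SD, n = 3) in young and 9.17 ± 0.29 (SD, n = 4) in old cells (limma adjusted p = 0.44).

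In the list of lipid-ligand and orphan G protein-coupled receptors, adhesion receptors included, 6 of 120 rose (5%) and 1 fell. Gpr183 (EBI2), the oxysterol receptor that positions immune cells, was at 5.65, 5.37 and 5.08 in young and at 7.38, 6.66, 6.98 and 7.74 in old cells, a rise of 1.82 ± 0.26 (SE), or 3.54-fold (limma adjusted p = 0.0007). The adhesion receptor Adgrg2 rose by 1.24 ± 0.13 (SE; limma adjusted p = 3.6e-05), the proton sensor Gpr4 by 0.72 ± 0.14 (SE; limma adjusted p = 0.0067) and the lysophosphatidic acid receptor Lpar6 by 0.69 ± 0.14 (SE; limma adjusted p = 0.011). These 4 were kept without any 1 array.

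The prostaglandin E2 receptor Ptger4 was at 7.26, 7.23 and 7.24 in young and at 8.38, 7.53, 8.16 and 8.61 in old cells. It rose by 0.93 ± 0.21 (SE; limma adjusted p = 0.02), a call that held in 1 of the 7 fits without 1 array. Adgrl4 rose by 0.43 ± 0.11 (SE; limma adjusted p = 0.036), which held only without old array 1 or old array 2, and Adgra2 fell by 0.56 (SE 0.13; limma adjusted p = 0.021) to a level near the low end. Cysltr2, the cysteinyl leukotriene receptor, was at 6.10, 5.87 and 6.19 in young and at 7.94, 7.79, 8.01 and 8.12 in old cells. Its arrays were close within each age, and it rose by 1.91 ± 0.12 (SE), or 3.76-fold (limma adjusted p = 1.8e-07). Slco2a1, a carrier that takes up prostaglandins, rose by 1.79 ± 0.16 (SE), or 3.46-fold (limma adjusted p = 6.1e-06). Ramp2, which turns the calcitonin receptor-like receptor into an adrenomedullin receptor, rose by 1.98 ± 0.34 (SE; limma adjusted p = 0.0038), with its lowest old value, 5.63, on array 2.

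Regulators of G proteins moved in both directions, with 4 of 54 higher and 3 lower. Gng11 rose by 0.57 ± 0.12 (SE; limma adjusted p = 0.011), Rgs1 by 0.55 ± 0.13 (SE; limma adjusted p = 0.03), Gnb5 by 0.45 ± 0.11 (SE; limma adjusted p = 0.044) and Rgs18 by 0.43 ± 0.09 (SE; limma adjusted p = 0.02). Rgs7bp, which anchors RGS proteins to membranes, fell by 1.42 (SE 0.17; limma adjusted p = 0.00014) to a level near the low end, Rgs16 fell by 0.61 (SE 0.14; limma adjusted p = 0.022) and Gng2 fell by 0.50 (SE 0.11; limma adjusted p = 0.016). Without old array 4, young array 1 or young array 2, 1 of the 54 rose, and without old array 2, 2 rose. Without young array 2, 1 of them fell.

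Of 207 ion channels, 5 rose (2.42%, beside 2.24% of all genes) and 6 fell (2.90%, beside 1.06%), and 130 of them were near the low end at both ages. Clca3a1, a chloride channel regulator, was at 6.72, 6.47 and 6.56 in young and at 9.18, 9.65, 9.29 and 9.27 in old cells. The spread within each age was small beside the rise of 2.76 ± 0.11 (SE), or 6.80-fold (limma adjusted p = 1.7e-10). The cation channel Trpc1 was near the low end in young cells and rose by 2.10 ± 0.18 (SE; limma adjusted p = 4e-06), Kcnip3 rose by 1.16 ± 0.18 (SE; limma adjusted p = 0.0014) and Trpc6 by 0.55 ± 0.09 (SE; limma adjusted p = 0.0033). The glutamate receptor subunit Gria3 was at 6.47, 6.57 and 6.75 in young and at 5.48, 5.0, 5.30 and 5.29 in old cells, and fell by 1.33 (SE 0.12), a 2.52-fold drop (limma adjusted p = 6.1e-06). The potassium channel Kcnb2 rose by 1.11 ± 0.27 (SE; limma adjusted p = 0.034) from a level near the low end. The other 5 falls, of Cacng4, Kcne2, P2rx5, Kcnab1 and Kcnh1, were of 0.38 to 0.50 on the log2 scale, and 4 of them had an old mean near the low end. Without old array 1, 3 or 4 or young array 1 or 3 the count of falls was 2.

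Of 73 semaphorin, plexin, ephrin and Slit-Robo genes, which steer migrating cells and axons, 3 rose (4.11%) and 2 fell (2.74%). Over all genes the shares were 2.24% and 1.06%. Besides Neo1, Plxnb2 rose by 0.70 ± 0.12 (SE; limma adjusted p = 0.0044) and the ephrin receptor Epha2 by 0.89 ± 0.13 (SE; limma adjusted p = 0.0011) from a level near the low end. Plxdc2 was at 8.52, 8.53 and 8.71 in young and at 7.96, 5.92, 7.25 and 7.59 in old cells. It fell by 1.41 (SE 0.32; limma adjusted p = 0.023) with its lowest value on old array 2, and the call held in 3 of the 7 fits without 1 array. Plxna2 fell by 0.43 (SE 0.10; limma adjusted p = 0.03), which held in 1 of them. Without old array 2 the list had 7 rises.

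Insulin-like growth factor signalling had 3 falls among 33 genes (9.09%) and no rise. Igf1, the ligand, was at 5.04, 4.91 and 5.17 in young and at 3.83, 3.73, 3.74 and 3.95 in old cells, which placed all old arrays near the low end and below all young ones. It fell by 1.23 (SE 0.16; limma adjusted p = 0.0003), and the call was kept without any 1 array. The adaptor genes Irs1 and Irs4 fell by 0.55 and 0.46 (SE 0.14 and 0.10; limma adjusted p = 0.04 and 0.015) with both ages near the low end. Without old array 3 or young array 1, 1 of the 33 fell.

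The retinoid list had 4 rises among 22 genes (18.2%) and no fall. Aldh1a1, which oxidises retinaldehyde to retinoic acid and is used as an enzymatic stem cell marker, was at 8.10, 8.11 and 8.20 in young and at 9.96, 10.08, 10.09 and 9.95 in old cells. The arrays of each age lay within a narrow range, and the rise was 1.88 ± 0.07 (SE), or 3.69-fold (limma adjusted p = 1.7e-10). Dhrs3, which reduces retinaldehyde back to retinol, rose by 1.47 ± 0.16 (SE), or 2.77-fold (limma adjusted p = 5.2e-05). Of the retinoic acid receptors, Rarb rose by 1.19 ± 0.23 (SE; limma adjusted p = 0.0073) and Rarg by 0.45 ± 0.11 (SE; limma adjusted p = 0.038). The Rarb call was lost without young array 1 and the Rarg call held in 1 of the 7 fits, and without young array 1 the list had 2 rises.

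Among 28 genes of phospholipid scrambling, lipoproteins and sterols, 5 rose (17.9%) and none fell. Plscr2, a relative of the phospholipid scramblases that move lipids between the leaflets of the membrane, was at 4.76, 4.29 and 3.96 in young and at 7.73, 8.10, 7.61 and 7.86 in old cells. It rose by 3.49 ± 0.16 (SE), or 11.2-fold (limma adjusted p = 1.6e-09), from a young mean just above the low end, with young array 3 under it. Its neighbour Plscr1 rose by 0.61 ± 0.10 (SE; limma adjusted p = 0.0023). These 2 are paralogues, and a sharing of signal between their probe sets was not tested.

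The desaturase Scd1 was at 4.84, 5.04 and 5.37 in young and at 6.38, 6.13, 6.31 and 6.60 in old cells, and rose by 1.27 ± 0.24 (SE; limma adjusted p = 0.0061). The lipoprotein receptor Vldlr rose by 1.21 ± 0.28 (SE; limma adjusted p = 0.024), though its arrays overlapped, at 7.0, 6.03 and 6.11 in young and at 7.45, 8.04, 7.94 and 6.92 in old cells. Cpt1a, which admits fatty acids to mitochondria for oxidation, rose by 0.40 ± 0.09 (SE; limma adjusted p = 0.022). Aspa, which releases acetate from N-acetylaspartate, rose by 2.25 ± 0.19 (SE), or 4.77-fold (limma adjusted p = 4e-06). Without young array 2 or young array 3 the list had 3 rises, Vldlr and Cpt1a being lost in both fits.

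Hox genes of the B cluster were among the transcription factors that rose. Hoxb5, whose expression marks long-term HSCs, was at 6.51, 6.54 and 6.36 in young and at 7.47, 7.27, 7.41 and 7.52 in old cells, a rise of 0.95 ± 0.14 (SE), or 1.93-fold (limma adjusted p = 0.00085). Its neighbour Hoxb6 rose by 0.88 ± 0.19 and Hoxb8, of the same cluster, by 0.99 ± 0.23 (SE; limma adjusted p = 0.018 and 0.025). Hoxb2 rose by 0.68 ± 0.18 (SE; limma adjusted p = 0.047), and the cofactor Pbx3 by 0.95 ± 0.12 (SE; limma adjusted p = 0.00025). The calls of Hoxb6, Hoxb8 and Hoxb2 held in 3, 3 and 2 of the 7 fits without 1 array, while those of Hoxb5 and Pbx3 were kept in all 7. Hoxb4, known for expanding HSCs when overexpressed, differed by 0.29 ± 0.10 (SE; limma adjusted p = 0.15) and was not called. In all, 5 of 46 Hox and TALE genes rose (10.9%) and none fell, 3 without old array 3, young array 1 or young array 2 and 2 without old array 4.

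Of 49 haematopoietic transcription factors, 4 rose and 4 fell. Bcl6, a repressor, was at 5.36, 5.11 and 4.85 in young and at 5.92, 6.80, 6.20 and 6.52 in old cells, a rise of 1.25 ± 0.24 (SE; limma adjusted p = 0.0069). Tcf15, a factor of quiescent HSCs, rose by 0.63 ± 0.14, Gata3 by 0.44 ± 0.11 and Gata2 by 0.33 ± 0.09 (SE; limma adjusted p = 0.019, 0.038 and 0.05, the last under the threshold before rounding). Without old array 4, young array 1 or young array 3 only 1 of the 49 rose, and 2 did without old array 1 or old array 3.

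Ldb2 was at 5.66, 5.38 and 5.62 in young and at 4.94, 4.61, 4.78 and 4.47 in old cells, and fell by 0.86 (SE 0.13; limma adjusted p = 0.0011). Sox4, a factor of lymphoid development, fell by 0.49 (SE 0.11; limma adjusted p = 0.018), Ikzf2 (Helios) fell by 0.42 (SE 0.09; limma adjusted p = 0.015), and Satb1 is given above. The stem cell factors Mecom, Hlf and Meis1 differed by 0.09 ± 0.10, -0.07 ± 0.12 and 0.11 ± 0.07 (SE; limma adjusted p = 0.66, 0.77 and 0.43) and were not called.

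Immediate-early genes, induced quickly by growth factors and also by the handling of cells, were higher with wide spread. Of 39 measured, 7 rose (17.9%) and none fell, and the list had a median difference of 0.29, with 33 of 39 above 0. Egr1 was at 8.09, 7.98 and 7.60 in young and at 9.74, 9.30, 9.23 and 8.82 in old cells, and rose by 1.38 ± 0.36 (SE; limma adjusted p = 0.046). Zfp36, which speeds the decay of cytokine mRNAs, rose by 1.13 ± 0.28 (SE; limma adjusted p = 0.033), and Klf6, Junb, Ier2 and Dusp4 rose by 0.88 ± 0.20, 0.82 ± 0.21, 0.97 ± 0.24 and 0.98 ± 0.22 (SE; limma adjusted p = 0.019, 0.039, 0.036 and 0.022).

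The AP-1 subunits Fos and Jun had larger differences but were not called. Fos was at 6.50, 6.65 and 5.59 in young and at 8.86, 7.90, 8.01 and 6.98 in old cells (limma adjusted p = 0.13), and Jun at 8.32, 8.25 and 7.46 and at 9.67, 9.25, 9.59 and 9.11 (limma adjusted p = 0.055). The ages did not overlap in either gene. The count of rises in the list was 1 without old array 1, 2 without old array 3, 0 without young array 1, 3 without young array 2 and 1 without young array 3. It was 0 without the 3 arrays of high Xist, with a median difference of 0.27.

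Cell division genes were lower on average, and few passed the test. Of 36 genes of G2 and M phase, 2 fell and none rose, and all 36 differences were below 0, with a median of -0.40. Ect2, which acts in cytokinesis, was at 6.09, 5.76 and 6.23 in young and at 5.02, 5.08, 4.97 and 5.38 in old cells, and fell by 0.91 (SE 0.19; limma adjusted p = 0.014). Kif23, a motor of the central spindle, fell by 0.77 (SE 0.19; limma adjusted p = 0.036). The call of Kif23 held in 2 of the 7 fits without 1 array, and the list had no fall without young array 1 or young array 3 and 1 without old array 1, old array 3 or old array 4. Of 34 S phase genes none was called, 3 were above 0, and the median was -0.22.

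The list means overlapped between the ages, since old array 2 was high. The G2 and M phase mean was 6.50 to 7.42 on the old and 7.17 to 7.35 on the young arrays. The proliferation marker Mki67 was at 8.88, 8.55 and 8.98 in young and at 8.01, 8.94, 8.31 and 7.99 in old cells (limma adjusted p = 0.31), with the 8.94 on array 2. Genes of 1 cycle phase are expressed together in the same cells, so their common sign counts as few independent observations.

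Among G1 cyclins, CDKs and their inhibitors, 1 of 27 was called. Cyclin D1 (Ccnd1), which joins mitogen signals to entry into the cycle, was at 7.71, 7.81 and 8.06 in young and at 8.80, 8.62, 9.05 and 8.92 in old cells. It rose by 0.99 ± 0.16 (SE), or 1.98-fold (limma adjusted p = 0.0018), without overlap. The senescence-associated inhibitor Cdkn2a (p16 and p19) was at 4.53 ± 0.15 (SD, n = 3) in young and 4.31 ± 0.15 (SD, n = 4) in old cells (limma adjusted p = 0.35), and Cdkn1a (p21) was at 5.07 ± 0.30 and 5.60 ± 0.21 (limma adjusted p = 0.12). Of 28 secreted factors of senescent cells 2 fell, Mmp2 by 0.76 (SE 0.12; limma adjusted p = 0.0021) and Tnfrsf11b by 0.35 (SE 0.09; limma adjusted p = 0.039), and none rose. The fall of Tnfrsf11b ended near the low end and was lost whichever array was left out.

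Lists often named in HSC ageing gave few or no calls, to be read beside 2.24% higher and 1.06% lower over all genes. None of 27 genes mutated in clonal haematopoiesis was called, and 2 of them, Dnmt3a and Tet2, differed by -0.26 ± 0.11 and -0.22 ± 0.14 (SE; limma adjusted p = 0.21 and 0.40). Jak2 differed by 0.34 ± 0.10 (SE; limma adjusted p = 0.062). None of 21 circadian genes was called. Of 24 sirtuin and mitochondrial quality genes 1 rose, the fusion factor Mfn1 by 0.39 ± 0.10 (SE; limma adjusted p = 0.046), and this call was lost whichever array was left out. Of 35 autophagy genes 1 rose, the lysosomal membrane protein Lamp2 by 0.35 ± 0.08 (SE; limma adjusted p = 0.023), which held in 2 of the fits without 1 array.

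Of 29 imprinted genes Asb4 alone rose (3.45%, beside 2.24% of all genes), by 1.11 ± 0.25 (SE; limma adjusted p = 0.02; lost without old array 1, old array 4, young array 2 or young array 3). Of 41 SWI/SNF and histone demethylase genes Arid5b alone rose (2.44%), by 0.86 ± 0.15 (SE; limma adjusted p = 0.0037).

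**Figure D4:**
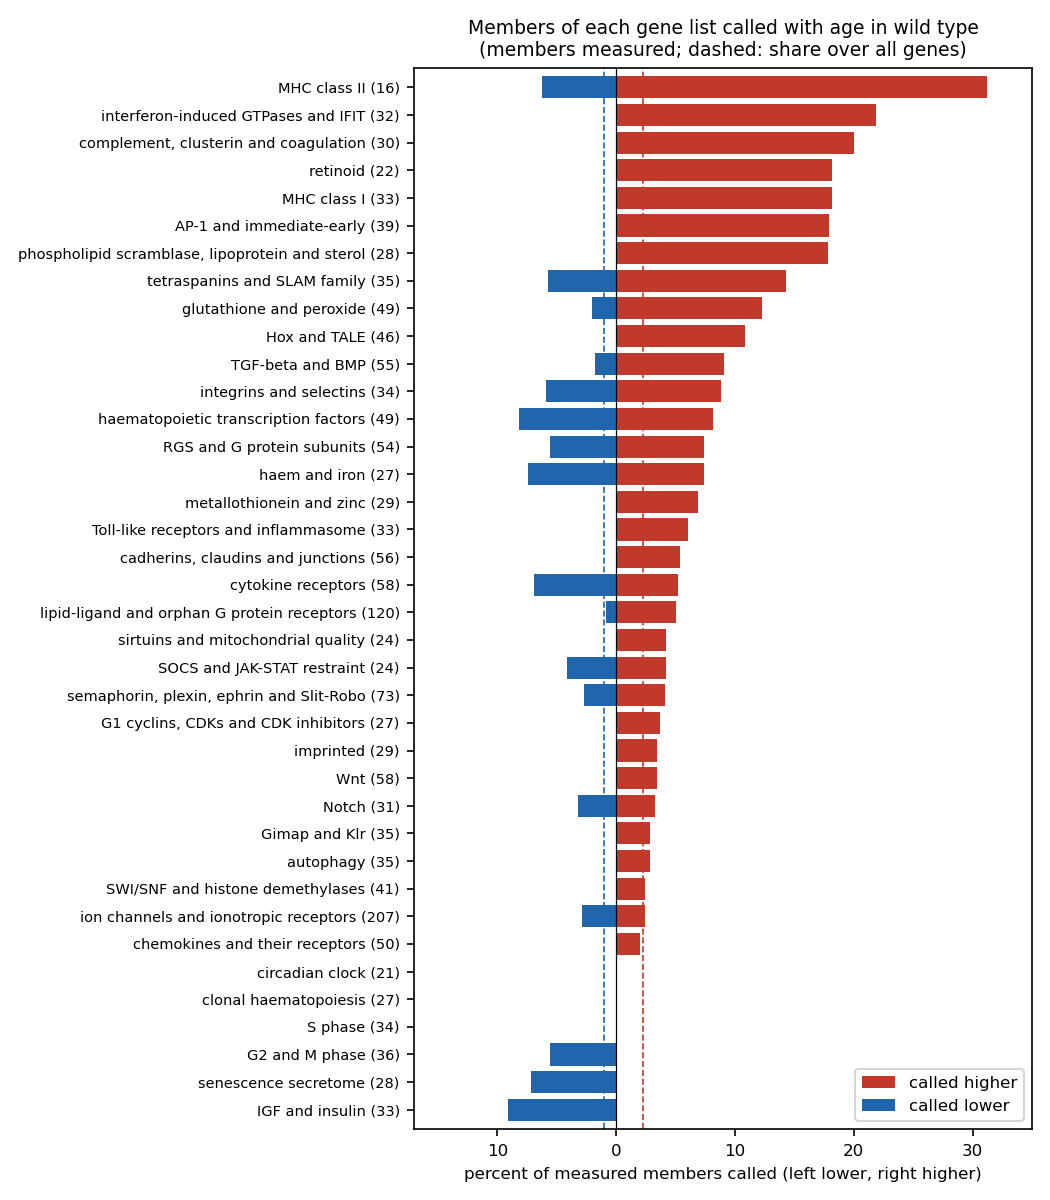
Percent of the measured members of each gene list that were called higher (red, to the right) or lower (blue, to the left) with age in wild type, with the number of measured members in brackets. The dashed lines give the shares over all genes, 2.24% higher and 1.06% lower. The MHC class II list reaches 31.2% higher, and the circadian, clonal haematopoiesis and S phase lists have no call.

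Other large changes lay outside the lists. Zg16, a secreted lectin, was at 3.85, 3.81 and 4.06 in young cells and at 5.93, 6.81, 6.07 and 6.84 in old cells, and rose by 2.50 ± 0.22 (SE; limma adjusted p = 4.5e-06) from a young mean near the low end. Sbspon, an extracellular matrix protein, rose by 2.21 ± 0.37 (SE; limma adjusted p = 0.0033), and the small GTPase Gem by 1.93 ± 0.34 (SE; limma adjusted p = 0.0038). In both of these the lowest old value was on array 2, at 5.38 and 6.02.

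Among falls, the RAS-associated gene Rassf4 fell by 1.48 (SE 0.18; limma adjusted p = 0.0002), the kinase Nrk fell by 1.44 (SE 0.17; limma adjusted p = 0.00018), and the nuclear receptor Hnf4a fell by 1.12 (SE 0.17; limma adjusted p = 0.0015). The non-muscle myosin Myh10 and the membrane-anchored Mdga1 each fell by 1.05 (SE 0.16 and 0.12; limma adjusted p = 0.0017 and 6.9e-05). These 5 falls were kept without any 1 array. Galectin 1 (Lgals1) fell by 0.96 (SE 0.21; limma adjusted p = 0.018), a call lost without young array 2 or young array 3.

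Genes that lie next to each other were called in the same direction in 43 runs that held 93 genes, and 42 of the runs were rises. How many such runs the position of the calls alone would give was not estimated. The runs included Casp1, Casp4, Casp12 and Pdgfd, the class II genes H2-Ab1, H2-Aa and H2-Eb1, and the lectin genes Clec1b, Clec9a and Clec1a. They also included the pairs Mt2 and Mt1, Slamf1 and Cd84, Cd9 and Vwf, Hoxb6 and Hoxb5, and Abcb1a and Abcb1b. The last pair encodes the drug efflux pump P-glycoprotein in mice, and rose by 0.92 ± 0.16 and 0.62 ± 0.11 (SE; limma adjusted p = 0.0038 and 0.0049). The fall of Plxna2 and Cd34 was the only run of falls. Many of these neighbours are paralogues, in which probes may read more than 1 transcript.

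The 44 calls that held in all 17 alternative analyses, the covariate for array SD included, were 40 rises and 4 falls. The falls were those of Flt3, Gria3, Hmox1 and Mdga1. Cd86 held in the 16 alternatives that tested it, its level being too low for the other. Among the rises were Mt1, Mt2, Selp, Vwf, Itgb3, Itga6, Aldh1a1, Bmpr1a and Pbx3, which are described above, and several that were named for this reason after their values were seen. The stress-induced chromatin protein Nupr1 was at 8.60, 8.17 and 8.39 in young and at 10.02, 9.56, 10.10 and 10.22 in old cells, a rise of 1.59 ± 0.17 (SE), or 3.0-fold (limma adjusted p = 3.9e-05). The calcium-binding protein S100a6 rose by 1.32 ± 0.13 (SE; limma adjusted p = 2.2e-05), the endosomal Ehd3 by 1.68 ± 0.13 (SE; limma adjusted p = 2.1e-06), the membrane metalloproteinase Mmp14 by 1.49 ± 0.15 (SE; limma adjusted p = 2.5e-05) and Enpp5 by 1.39 ± 0.10 (SE; limma adjusted p = 5.6e-07).

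Tdrd9, a helicase of the piRNA pathway of germ cells, rose by 1.85 ± 0.17 (SE; limma adjusted p = 8.9e-06), and the exchange factor Dock9 by 1.01 ± 0.10 (SE; limma adjusted p = 1.4e-05). Ly6e had the smallest difference of the 40 rises, 0.31 ± 0.04 (SE; limma adjusted p = 0.00016), with levels of 11.54 to 11.63 in young and 11.86 to 11.92 in old cells.

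The age difference of wild-type cells was set beside that of Lnk-null cells, which shares no array with it. In Lnk-null cells 272 genes (1.34%) were called with age. Young Lnk-null arrays 1 and 2 had Xist at 10.54 and 10.55 and Y-linked means of 3.06 and 3.0, while the third young and all 4 old Lnk-null arrays had Xist at 3.48 to 4.03 and Y-linked means of 7.02 to 7.30. When the Y-linked level of each array was fitted too, 74 genes were called in Lnk-null cells, and without the arrays of high Xist 71. The counts that follow are those without either change. Of these, 186 were also called in wild type, which is 27.8% of the wild-type and 68.4% of the Lnk-null calls, and all 186 had the same direction. The sign was the same in both genotypes for 598 of the 668 wild-type calls, beside 60.2% of all genes. The difference was larger in wild type for 580 of the 668, and the median ratio of the Lnk-null to the wild-type difference was 0.503. These genes were chosen for being called in wild type, so this ratio is no test of a weaker response in Lnk-null cells.

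The difference between the 2 age effects was tested directly as an interaction over all genes. Only Aldh1a1 was called (1 of 20239 genes, 0.00494%), while 1452 genes had an unadjusted interaction p under 0.05. When the Y-linked level was fitted too 3 were called, and without the arrays of high Xist 0. The rise of Aldh1a1 was 1.88 ± 0.07 in wild type and 0.88 in Lnk-null cells, and the interaction was -1.0 ± 0.10 (SE; limma adjusted p = 0.00061). The next gene by p was Slco2a1, with a rise of 1.79 in wild type and a difference of 0.51 in Lnk-null cells, and its interaction of -1.28 ± 0.23 (SE) was not called (limma adjusted p = 0.28).

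The rises of MHC class II and interferon-induced GTPase genes did not pass the test in Lnk-null cells. H2-Aa differed there by 0.56 (limma adjusted p = 0.44), H2-Eb1 by 0.80 (0.14), Cd74 by 0.64 (0.42) and Ifi47 by 0.11 (0.93). Their interactions were -1.59 ± 0.33, -1.34 ± 0.33, -1.19 ± 0.37 and -0.98 ± 0.24 (SE), and none was called (limma adjusted p = 0.33, 0.5, 0.6 and 0.5), so a difference between the genotypes was not shown. Hmox1 differed by -0.65 in Lnk-null cells (limma adjusted p = 0.12), with an interaction of 1.26 ± 0.26 (SE; limma adjusted p = 0.33). Mt2, Plscr2, Selp and Clca3a1 rose in both, by 3.83, 2.57, 2.46 and 2.40 in Lnk-null cells (limma adjusted p = 0.0001, 2.7e-07, 2.1e-05 and 3.1e-09).

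**Figure D5:**
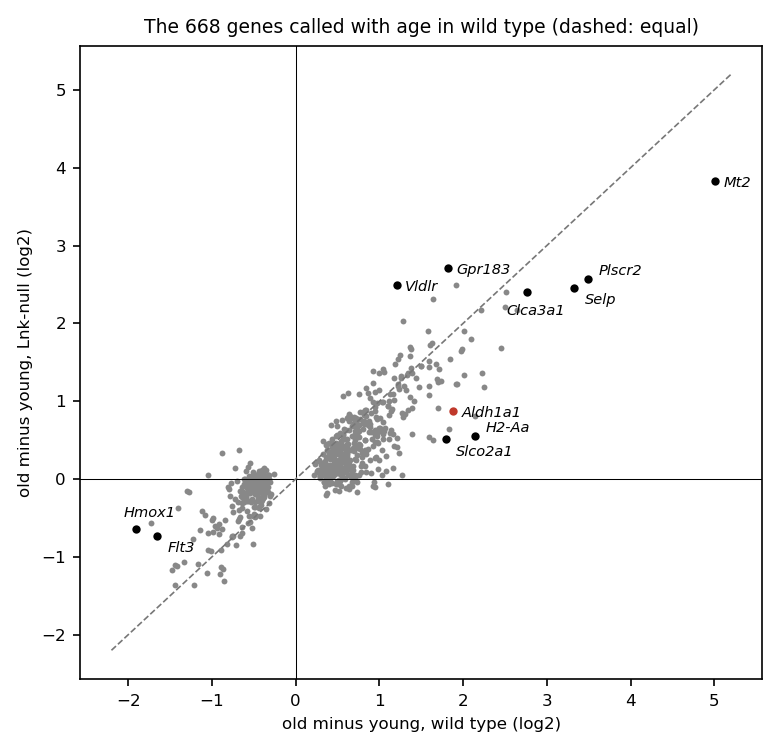
Old minus young difference (log2) in Lnk-null against that in wild-type cells for the 668 genes called in wild type, with equal differences on the dashed line and Aldh1a1 in red. Of these genes 598 have the same sign on both axes, and Aldh1a1 lies at 1.88 and 0.88.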

How the data were processed

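The authors deposited log2 expression levels per probe set; the submitters' processing notes name RMA and affy, without versions. How probes were grouped, and on which genome build, is not given in the sources used here. Arrays carry no read depth, so their number (4 old, 3 young) limits the precision. RNA was amplified before labelling, per the labels' protocols, which can distort levels. Of 21225 probe sets, 20239 with exactly 1 symbol in GEO's platform annotation were tested and 986 were left unnamed. limma 3.58.1 in R 4.3.3 fitted group means over all 14 arrays, so the Lnk-null arrays share in the estimate of the spread, with a variance trend and Benjamini-Hochberg adjustment, and a gene was called at an adjusted p under 0.05. The scripts were tested on simulated data.

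Named genes were the 20 genes that rose most and the 20 that fell most, among calls without overlap (receptors for odours and pheromones, small RNAs, unnamed models and the like excluded), up to 6 called members per direction of each pathway list, each list's key members whether called or not, sort markers, and up to 10 interaction calls. Others were added after their values were seen: genes that held in all alternatives that tested them, and Pf4, Itga2b and Mki67 for their values on old array 2. The gene lists and their members were chosen with earlier results of these data known. The replicate numbers did not pair the arrays: same-numbered old and young arrays had deviations that correlated at -0.01, -0.01 and 0.01. Promoter windows were matched by symbol and searched on both strands. 1 gene list is not reported here.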

Additional observations from a re-analysis of the deposited data

Results flagged for a closer look

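In 13 of the 205 named genes 1 old wild-type array lay apart from the other 3, by a gap, as a share of the range of the group, above Dixon's critical value at the 95% level. Chance gives about 1 in 20. Old array 2 was the one apart in 6 of them, at 8.62 for Clu, 6.84 for Mdga1, 7.72 for Blvrb, 7.16 for Plxnb2, 4.56 for Plxna2 and 8.68 for Prtn3. Old array 1 was apart at 7.65 for H2-Eb1, 9.55 for Plscr1 and 7.19 for Casp12. Old array 3 was apart at 3.27 for Slc40a1, 8.53 for Cpt1a and 7.76 for Dock9, and old array 4 at 4.69 for Tgfb3. The age effect of Aldh1a1 differed between the genotypes by -1.0045 (Lnk-null minus wild type), the only interaction called.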

How the results depend on the processing

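The lead of rises over falls held in all 17 alternatives. Of the 668 calls, 147 held in every alternative but the covariate for array SD, and 44 in that one too. A further 8 calls, 1 of them in that one too, held wherever tested but were dropped by the filter on levels. With wild-type arrays alone 380 genes were called, 281 higher and 99 lower. With array SD as a covariate 49 were called, 42 higher and 7 lower, and no interaction (0). Without the arrays with Xist above 6, 231 were called, 185 higher and 46 lower, with 71 in Lnk-null cells and 0 interactions. Fitting each array's Y-linked level left 74 calls in Lnk-null cells and gave 3 for the interaction, and array weights gave 428 in Lnk-null cells. Leaving out 1 array gave 382 to 697 calls, 277 to 490 higher and 105 to 219 lower. The filter on levels above 5 on at least 3 arrays gave 679 calls, 78.9% of them higher beside 68% over all genes. With the replicate number as a block 554 were called, 485 of them among the 668. The sign turned for Mt3 (0.15), Mtf1 (-0.22) and Ciita (-0.0602) with array SD as a covariate, and for Hlf without the arrays with Xist above 6 (0.0494) and without old array 2, its values without 1 array ranging from -0.1507 to 0.0511. None of these was called, and the cause was not tested. Few arrays and levels near the low end limit the precision.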
